A study of Sciaenops ocellatus with 24 samples.

Results

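The comparison described here asked whether the miRNAs of red drum (Sciaenops ocellatus) larvae responded differently to weathered slick oil of the Deepwater Horizon spill and to a stand-in for its source oil, each at its highest concentration. Its measure is the slick response (slick oil 5.00% over its own control) minus the source response (source oil 0.54% over its own control), both on the log2 scale. It used 12 of the 24 libraries of the series, 3 in each of 4 groups, and the 143 miRNA names that stood in both count tables. A positive difference means that a name was higher, relative to its own control, with slick oil than with source oil.

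The slick oil 5.00% group was exposed to oil that had weathered at sea and was collected from the Gulf surface, and the slick control is the group without oil deposited beside it. The source oil 0.54% group was exposed to a pipeline oil used as a stand-in for the oil of the well, and the source control is the group without oil deposited beside it. Percentages give the share by volume of a high-energy water accommodated fraction, made by mixing oil into seawater, in sterilized seawater. All libraries were made from pooled whole larvae at 48 hours post fertilization, from embryos of hatchery brood stock that had been treated with formalin and rinsed. The number of larvae per pool is not given in the sources used here, and 1 label field calls the same samples embryos. Oil, concentration and set of libraries changed together between both responses, so they cannot be told apart, and 5.00% of one oil is not the same dose as 0.54% of the other. The labels do not say whether the libraries of a group stem from different spawns or tanks, and the spread that the p-values rest on may be technical.

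miRNAs are short RNAs that guide Argonaute proteins to messenger RNAs with a matching site and lower the output of those messages. Many are made in few cell types, such as miR-124 in neurons, miR-206 and miR-133 in muscle, miR-184 in lens and cornea, and miR-144 with miR-451 in red blood cells. In a whole larva a change in such a miRNA can reflect its level per cell or the number of those cells, and in these bulk samples fewer cells of a type and less RNA per cell cannot be told apart. Crude oil is known in fish embryos for effects on the heart, on vision and on the nervous system.

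The 4 slick and source groups had unequal depth. Total counts per library were 2820454 to 4346165 with slick oil 5.00%, 8000563 to 8535913 in the slick control, 7285368 to 9741582 with source oil 0.54% and 6778108 to 9404688 in the source control. Of the 143 names, 133 had at least 10 counts in at least 3 libraries, and 107 of these were counted in all 12 libraries and were tested. Among the 107, 4 pairs of names had counts within 1% of each other in every library, which leaves at most 103 separate signals. Levels below are in CPM (counts scaled to an equal library total over the 107 names, with TMM), and group values are means ± SD of 3 libraries. The TMM factor was 0.77 for slick 5.00% library 3 and 0.95 to 1.18 for the others. A low factor raises every CPM of its library. A name stands for the reads counted under it, whatever species its prefix gives (such as dre for zebrafish or ssa for Atlantic salmon). The arm in a name (5p or 3p) was not checked against reads, and the role given below is that of the miRNA, whichever its arm. Names of miRNAs of muscle, nerve, eye, sensory cells, red blood cells, skin, pancreas and gut were counted in all 12 libraries, while miR-1 of muscle and miR-122 of liver had no name in both tables.

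The responses to both oils differed for 27 of the 107 names (25.2%), counting Benjamini-Hochberg adjusted p-values under 0.05 from edgeR's quasi-likelihood test. The difference was positive for 13 names (12.1%), among them the eye names of miR-184 and miR-204, 3 miR-10 names of the Hox clusters, and names of miR-128, miR-222 and miR-100. It was negative for 14 names (13.1%), among them the names of neuronal miR-124, 4 names of the miR-17-92 family, miR-96 and miR-722. The 27 names are at most 25 separate signals, since the pairs ola-miR-19b with ssa-miR-19c-4-5p and ccr-miR-722 with ssa-miR-722-5p were nearly identical. Other called names, such as those of miR-10, can share reads as well. With library totals alone in place of TMM, the median difference of all names was -0.36, against 0.00 with TMM, and the split was 5 positive and 35 negative, so every direction here is relative to the other names. All 27 kept their direction under that scaling and 19 remained called. The 8 that did not were all positive names.

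In 15 of the 27 names the source response was called and the slick response was not, in 4 names the reverse held, in 1 name both were called and in 7 neither was. The responses had opposite signs in 22 of the 27, a count that the choice of the names favours, against 54 of all 107. In the same fit 14 of the 107 names (13.1%) were called for slick oil, 7 higher (6.54%) and 7 lower (6.54%), and 31 names (29.0%) for source oil, 15 higher (14.0%) and 16 lower (15.0%). With library totals alone the slick calls were 16, split into 5 higher and 11 lower, and the source calls 42, split into 36 higher and 6 lower, with the median response of all names at -0.11 for slick and 0.29 for source oil. As a description over the 107 names, which share the 12 libraries and their depths, Pearson's r between the slick and the source response was 0.02 and Spearman's rho -0.04.

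**Figure D1:**
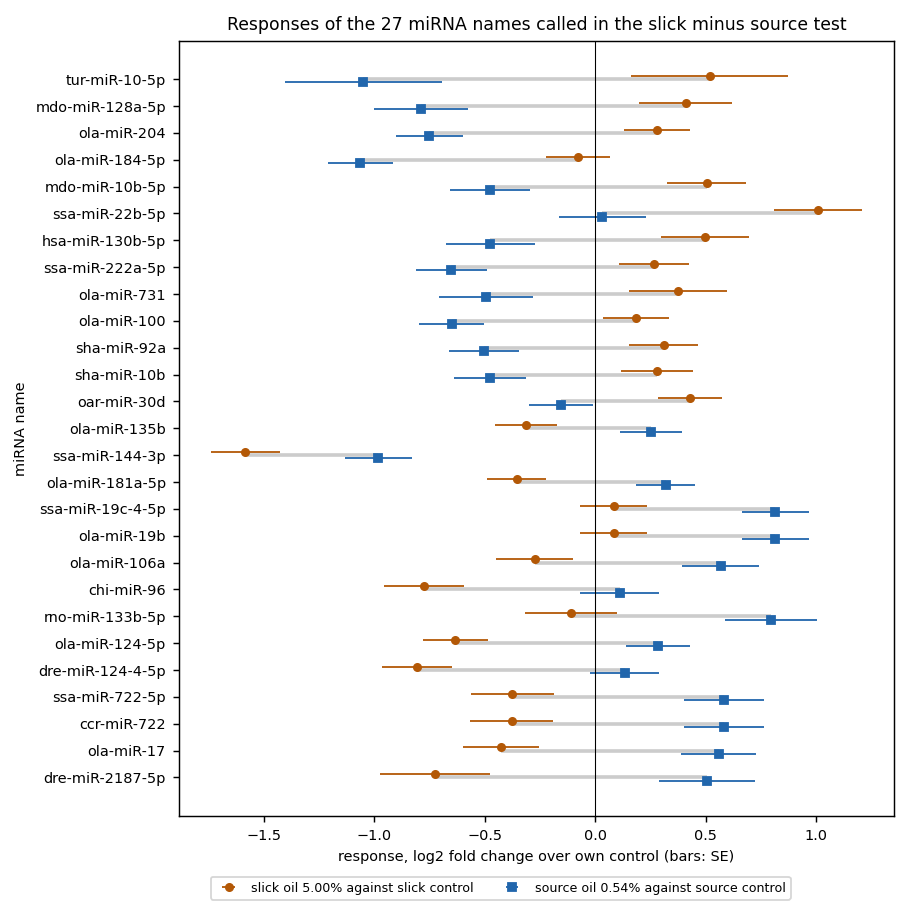
Slick oil 5.00% response (circles) and source oil 0.54% response (squares) of the 27 called names, as log2 fold changes over each oil's own control with standard errors, ordered by their difference. Names with a positive difference lie at the top, ending with tur-miR-10-5p (1.57). Those with a negative one lie at the bottom, ending with dre-miR-2187-5p (-1.23).

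**Figure D2:**
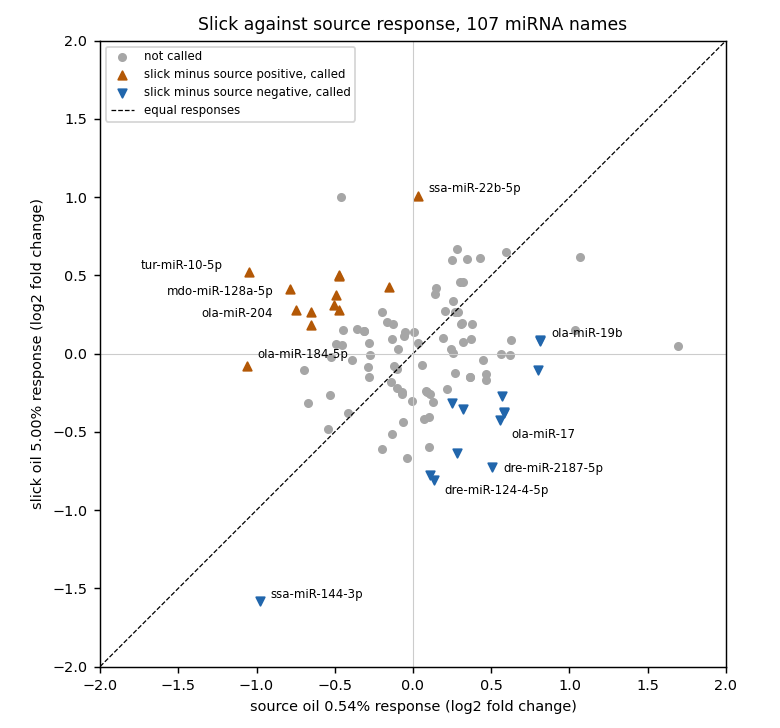
Slick oil 5.00% response (vertical axis) against source oil 0.54% response (horizontal axis), both log2 fold changes, for all 107 tested names. Triangles are the 27 called names, 13 above and 14 below the line of equal responses. ssa-miR-144-3p is the lowest called name, with both responses negative. Both were also negative for ola-miR-184-5p, whose slick response was -0.08.

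The smallest p-values belonged to a pair of eye miRNAs. Both fell with source oil while their slick responses were not called. ola-miR-184-5p, of a miRNA abundant in lens and cornea, had 6453, 6164 and 8418 CPM with slick oil 5.00%, against 7336, 8059.8 and 6781 CPM in the slick control, so these groups overlapped. It had 4929, 5215 and 6013 CPM with source oil 0.54%, against 10094, 12782 and 10868 CPM in the source control, with no overlap. The slick response was -0.08 ± 0.15 (SE) and the source response -1.06 ± 0.15 on the log2 scale, and their difference was 0.99 ± 0.21 (adjusted p = 0.00887, edgeR, n = 3 libraries a group). The slick control was itself lower than the source control for this name, by 0.61 ± 0.15 on the log2 scale, and the slick 5.00% libraries stood above the source 0.54% libraries.

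ola-miR-204, of a miRNA made in lens and pigment epithelium, had 8545, 11481 and 9044 CPM with slick oil, against 6720.0, 8373 and 8865 CPM in the slick control. With source oil it had 5254, 6319.8 and 7050.2 CPM, against 10705, 10219.6 and 10391 CPM in the source control. The source groups did not overlap, and the slick groups did. Its difference was 1.03 ± 0.21 (adjusted p = 0.00887), from a slick response of 0.28 ± 0.15 and a source response of -0.75 ± 0.15. Both eye names remained called whichever of the 12 libraries was left out. In the fit to all libraries but slick 2.50%, ola-miR-204 stood at 1.05 (adjusted p = 0.0502).

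The sensory list held 2 further tested names, of miR-96 and miR-182, which come from 1 cluster known for hair cells and photoreceptors. Both had negative slick responses, and they parted in the source response. A name of miR-183, mmu-miR-183-5p, was at 0 in 8 libraries and was not tested. chi-miR-96 had 3929, 4838 and 3062 CPM with slick oil, against 6195, 8776 and 5253 CPM in the slick control, and 4725, 4919 and 4848 CPM with source oil, against 5014, 4240.4 and 4167 CPM in the source control. It fell with slick oil (-0.77 ± 0.18, adjusted p = 0.00561) and its source response was 0.11 ± 0.18, giving a difference of -0.88 ± 0.26 (adjusted p = 0.0178). The slick groups of chi-miR-96 did not overlap. The call was lost without slick 5.00% library 3, slick control 2, source 0.54% library 2 or source control 2 or 3, where the difference was -0.67 to -0.85 and the adjusted p 0.0519 to 0.0638. chi-miR-182 had responses of -0.38 ± 0.13 to slick oil (adjusted p = 0.0544, edgeR) and -0.42 ± 0.13 to source oil (adjusted p = 0.0229, edgeR). The fall with source oil was called, and no difference between the responses was detected (0.04 ± 0.18, 95% interval -0.33 to 0.41). Of the 4 tested names of the list, 2 were positive and 1 negative among the calls, beside 12.1% and 13.1% of all 107 names, with a list median of 0.51 against 0.00 over all names.

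**Figure D3:**
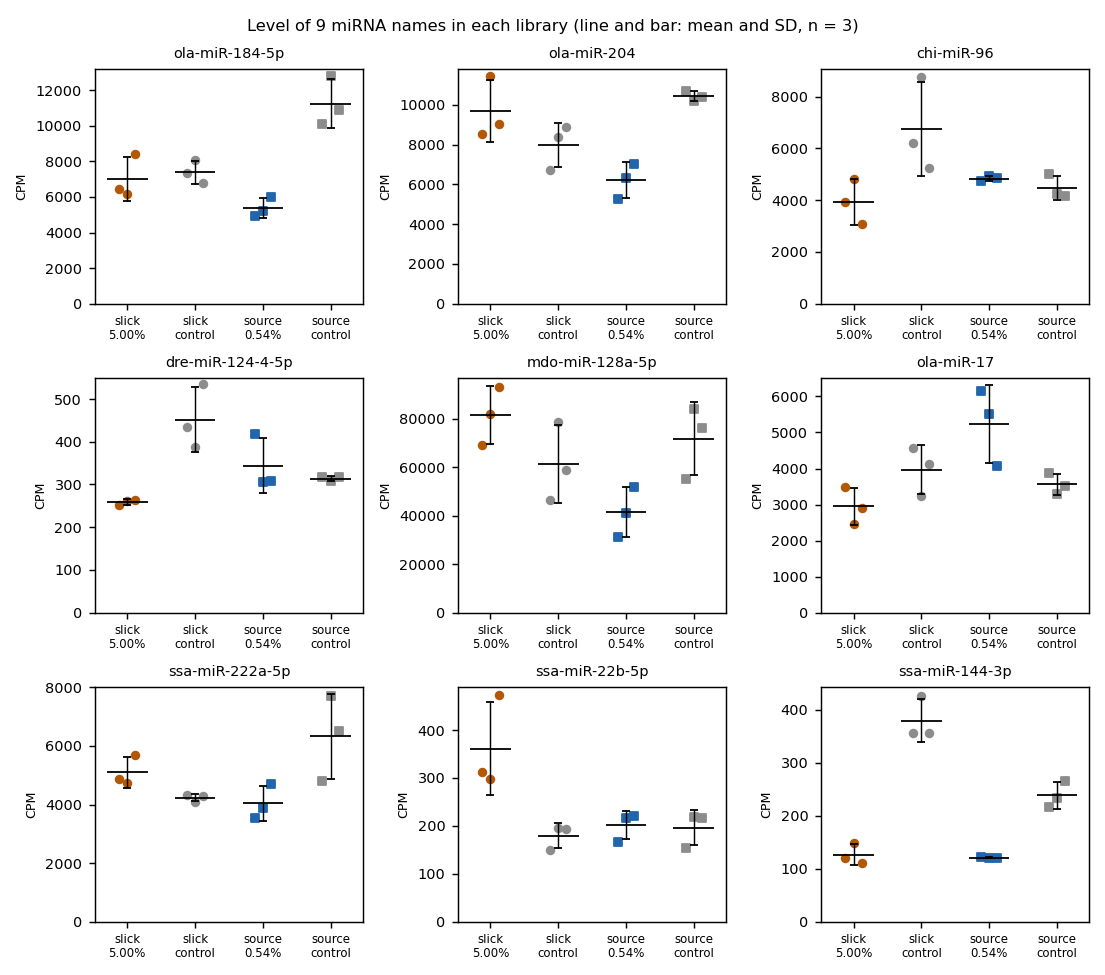
Level of 9 names in CPM (vertical axes, from 0) in each library of slick oil 5.00%, slick control, source oil 0.54% and source control, with the mean (line) and SD (bar) of 3 libraries. The source oil libraries of ola-miR-184-5p lie between 4929 and 6013 CPM, below all 3 of their controls, whereas its slick libraries overlap their controls. ssa-miR-144-3p is lower in both oils than in either control.

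Among nerve miRNAs, miR-124 and miR-128 had differences of opposite sign. dre-miR-124-4-5p, a name of the miRNA that marks neurons, had 251, 261 and 265 CPM with slick oil, against 434, 387 and 535 CPM in the slick control. The source 0.54% libraries had 418, 307 and 308 CPM, against 317, 308 and 317 CPM in the source control. Every slick library lay below every slick control, and the source groups overlapped. It fell with slick oil by 0.80 ± 0.16 (adjusted p = 0.00243), its source response was 0.13 ± 0.16, and the difference was -0.94 ± 0.22 (adjusted p = 0.0128). The other miR-124 name, ola-miR-124-5p, gave a difference of -0.92 ± 0.21 (adjusted p = 0.0122), with 315 ± 21.8 CPM with slick oil, 488 ± 82.1 CPM in its control, 471 ± 34.9 CPM with source oil and 387 ± 31.6 CPM in its control. Reads that fit both names could have been counted under either or under both.

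mdo-miR-128a-5p, of a brain miRNA, was among the most abundant names. It had 69066, 82100.4 and 93234 CPM with slick oil, against 46480.5, 78496 and 58938 CPM in the slick control, which overlapped. Source oil 0.54% gave 31319.6, 41281 and 51963 CPM, against 54919, 84037 and 76049 CPM in the source control, which did not. It fell with source oil (-0.79 ± 0.21, adjusted p = 0.0136), its slick response was 0.41 ± 0.21, and the difference was 1.20 ± 0.30 (adjusted p = 0.0128). Its SD between libraries was 12097 CPM with slick oil, 16138 CPM in the slick control, 10324 CPM with source oil and 15045 CPM in the source control.

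ola-miR-135b was the third negative call of the nerve list, with a difference of -0.56 ± 0.20 (adjusted p = 0.046), and neither response alone was called (-0.31 ± 0.14 for slick and 0.25 ± 0.14 for source oil). Its call was lost without slick 5.00% library 1 or 3, slick control 2 or 3, source 0.54% library 1, 2 or 3 or source control 2 or 3, where the difference was -0.46 to -0.60 and the adjusted p 0.0567 to 0.102. Of 12 tested nerve names 1 was positive and 3 were negative among the calls, beside 27 calls in 107 over all names, and the list median was -0.09. aca-miR-9-5p, of neural progenitors and the most abundant name of the list, had 440294 ± 58819 CPM with slick oil, 383303 ± 33594 CPM in its control, 278642 ± 27012 CPM with source oil and 312265 ± 19486 CPM in its control. No difference of its responses was detected (0.36 ± 0.20, 95% interval -0.05 to 0.78).

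Of 3 tested muscle names, rno-miR-133b-5p was called. It had 311, 242 and 314 CPM with slick oil, against 361, 278 and 294 CPM in the slick control, and 500.5, 343 and 369 CPM with source oil, against 314, 212 and 171 CPM in the source control. It rose with source oil (0.80 ± 0.21, adjusted p = 0.0117), its slick response was -0.11 ± 0.21, and the difference was -0.90 ± 0.29 (adjusted p = 0.0317). This call was lost without slick 5.00% library 2 or 3, slick control 1 or 3, source 0.54% library 1 or source control 2 or 3, where the difference was -0.71 to -0.97 and the adjusted p 0.0537 to 0.103. ssa-miR-206-5p, of the skeletal muscle miRNA, varied most with slick oil, at 174562, 128453 and 271365 CPM. The highest of these values came from library 3, which had the lowest TMM factor. The slick control had 207973, 183450.0 and 157960.0 CPM. With source oil ssa-miR-206-5p had 159145, 190162 and 190234 CPM, against 240220.0, 263718 and 255907 CPM in the source control, which did not overlap. Its difference of 0.56 ± 0.29 was not called (adjusted p = 0.146). Without slick 5.00% library 2 it was called, at 0.70 (adjusted p = 0.0376).

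In blood and vessels the erythroid ssa-miR-144-3p was the 1 name called for the difference whose falls with both oils were also called. It had 119.8, 148 and 111 CPM with slick oil, against 355, 427 and 357 CPM in the slick control. The source 0.54% libraries had 122, 120.1 and 120.3 CPM, against 216, 233 and 266 CPM in the source control. The exposed groups averaged 126 ± 19.5 CPM with slick oil and 121 ± 0.811 CPM with source oil (a gap of 0.07 ± 0.15 on the log2 scale, adjusted p = 0.731), whereas the slick control stood above the source control by 0.67 ± 0.15 (adjusted p = 0.00196). The responses were -1.58 ± 0.15 and -0.98 ± 0.15, and their difference of -0.60 ± 0.21 had an adjusted p of 0.046. The call was lost with median-of-ratios factors, at -0.56 (adjusted p = 0.0736), with DESeq2 at -0.56 (adjusted p = 0.0546), after thinning at -0.65 (adjusted p = 0.0593) and in the fit to all libraries but slick 2.50% at -0.57 (adjusted p = 0.0639). Leaving out 1 library kept the call in 3 of 12 fits, and it was lost without slick 5.00% library 1 or 3, slick control 2 or 3, source 0.54% library 1, 2 or 3 or source control 1 or 2, where the difference was -0.52 to -0.64 and the adjusted p 0.0567 to 0.118. chi-miR-451-5p, from the same erythroid cluster, had a difference of 0.59 ± 0.29 in the other direction that was not called (adjusted p = 0.13), from responses of -0.10 ± 0.21 and -0.70 ± 0.21.

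ssa-miR-222a-5p, of a miRNA known in mammals for vessels and for limiting red cell formation, had 4876, 4723 and 5689 CPM with slick oil, against 4327, 4095 and 4278 CPM in the slick control, and 3527, 3894 and 4693 CPM with source oil, against 4807, 7693 and 6516 CPM in the source control. Every slick library exceeded every slick control, and every source library lay below every source control. The difference was 0.92 ± 0.23 (adjusted p = 0.0128), and of the responses the fall with source oil was called (-0.65 ± 0.16, adjusted p = 0.0115). hsa-miR-130b-5p, of the miR-130/301 family, had 8420.0 ± 1104 CPM with slick oil, 5967 ± 1588 CPM in its control, 4241 ± 1116 CPM with source oil and 5892 ± 868 CPM in its control. Its responses of 0.50 ± 0.20 and -0.47 ± 0.20 were not called singly, while the difference of 0.97 ± 0.28 was (adjusted p = 0.0178). That call was lost without slick 5.00% library 2 or 3, slick control 3 or source control 2, where the difference was 0.87 to 0.91 and the adjusted p 0.054 to 0.0582. With library totals alone it was 0.65 (adjusted p = 0.0649). For tgu-miR-126-5p, of an endothelial miRNA, no difference was detected (0.00 ± 0.18, 95% interval -0.38 to 0.38). The blood and vessel list had 10 tested names (at most 9 separate signals). Of these 10 names 3 were called, 2 positive and 1 negative, beside 25.2% of all names. The list held 4 positive differences in all and had a median of -0.23. Relatives of the called names were not called and lay on both sides of 0. Negative were ccr-miR-221 at -0.34 ± 0.25, ola-miR-130c at -0.40 ± 0.23 and ipu-miR-130c at -0.13 ± 0.20. The miR-301 names were positive, with dre-miR-301c-5p at 0.51 ± 0.23 and ssa-miR-301a-5p at 0.35 ± 0.19.

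The miR-17-92 family, known for promoting proliferation, had 4 negative and 1 positive call among 10 tested names (at most 9 separate signals), beside 13.1% negative and 12.1% positive calls over all names. The family median was -0.63 and became -0.99 under library totals alone. ola-miR-17 had 3488, 2464 and 2915 CPM with slick oil, against 4556, 3226 and 4125 CPM in the slick control. Source oil 0.54% gave 6152, 5506 and 4056 CPM, against 3869.6, 3285 and 3516 CPM in the source control. The source groups did not overlap and the slick groups did. Its responses were -0.43 ± 0.17 and 0.56 ± 0.17, and the difference was -0.98 ± 0.24 (adjusted p = 0.0128). ola-miR-19b, nearly identical to ssa-miR-19c-4-5p (-0.73 ± 0.21), had 401, 454 and 397 CPM with slick oil, against 350.1, 379 and 453 CPM in the slick control, and 524, 403 and 415 CPM with source oil, against 279, 236 and 248 CPM in the source control. It rose with source oil (0.81 ± 0.15, adjusted p = 0.00122), and its difference was -0.73 ± 0.21 (adjusted p = 0.0178). No gap between the exposed groups was detected for this name (-0.10 ± 0.15, adjusted p = 0.613), and the slick control stood above the source control (0.63 ± 0.15, adjusted p = 0.0025).

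ola-miR-106a, a close relative of miR-17, had 1159 ± 204 CPM with slick oil, 1401 ± 318 CPM in its control, 1463 ± 211 CPM with source oil and 987 ± 64.7 CPM in its control. Its difference was -0.84 ± 0.25 (adjusted p = 0.0182). The call of ola-miR-19b was lost without slick control 3, source 0.54% library 1 or source control 2, where the difference was -0.59 to -0.68 and the adjusted p 0.0553 to 0.0718. The miR-106a call was lost without slick control 3, source 0.54% library 1 or 2 or source control 2 or 3, where the difference was -0.73 to -0.82 and the adjusted p 0.0537 to 0.086. sha-miR-92a, whose miRNA lies in the same cluster, had a difference of the other sign, with 16419, 12629 and 18551 CPM with slick oil, against 13259, 10911 and 14199 CPM in the slick control. It had 14951, 13744 and 11516 CPM with source oil, against 18986, 17289.8 and 20718 CPM in the source control. The fall with source oil was called (-0.50 ± 0.16, adjusted p = 0.0235), the slick response was 0.31 ± 0.16, and the difference was 0.81 ± 0.22 (adjusted p = 0.0154). Its call was lost with library totals alone, at 0.44 (adjusted p = 0.108). Among the rest of the family, oan-miR-20a-5p, dre-miR-93, ssa-miR-18a-5p and chi-miR-18b-5p had values of -0.63 ± 0.24, -0.63 ± 0.27, -0.41 ± 0.18 and -0.21 ± 0.24, and hsa-miR-25-5p 0.51 ± 0.23, none of them called.

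All 5 tested names of the Hox cluster list, whose miRNAs lie between the genes that pattern the body axis, had positive differences, and 3 were called. Over all 107 names 53 differences were positive and 12.1% were called positive. The list median was 0.75, and 0.39 under library totals alone, which gave tgu-miR-196 a value of -0.12 and left 4 positive names of 5. mdo-miR-10b-5p had 2801, 2812 and 4482 CPM with slick oil, against 1938, 2819.8 and 2354 CPM in the slick control. With source oil it had 1689.5, 1878 and 2163 CPM, against 2669, 2594 and 2708 CPM in the source control, which did not overlap. The difference was 0.98 ± 0.25 (adjusted p = 0.014), from responses of 0.50 ± 0.18 and -0.48 ± 0.18 that were not called singly.

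A second miR-10b name, sha-miR-10b, shared nearly the same levels in the source libraries, with 1908 ± 237 CPM with source oil and 2653 ± 56.4 CPM in its control. In the slick libraries it had 3168, 2810.3 and 4474 CPM with oil, against 2768, 3287 and 2554 CPM in the control, and differed there most in control 1. Its difference was 0.75 ± 0.23 (adjusted p = 0.0218), lost without slick 5.00% library 3, slick control 3 or source control 2, where the difference was 0.53 to 0.77 and the adjusted p 0.054 to 0.0593. Library totals alone gave 0.39 (adjusted p = 0.0804). tur-miR-10-5p, at the low level of 28.1 ± 9.88 CPM with slick oil, 19.2 ± 2.02 CPM in its control, 10.2 ± 6.39 CPM with source oil and 21.4 ± 3.78 CPM in its control, had the widest error among the calls (1.57 ± 0.50, adjusted p = 0.0291). This call was lost without slick 5.00% library 3, slick control 3 or source control 3, where the difference was 1.27 to 1.52 and the adjusted p 0.06 to 0.117. It was also lost with library totals alone, at 1.22 (adjusted p = 0.0622), and after thinning, at 1.43 (adjusted p = 0.0593). The 3 miR-10 names can share reads and are not independent of each other.

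ola-miR-100, of a miRNA that lies beside let-7 and miR-125 in animal genomes, had 272, 219 and 265 CPM with slick oil, against 209, 238 and 218 CPM in the slick control, and 124, 134 and 156 CPM with source oil, against 210.3, 201 and 239.6 CPM in the source control. The slick control stood 0.03 ± 0.15 above the source control on the log2 scale, and the source 0.54% libraries lay below all other libraries. The difference was 0.83 ± 0.21 (adjusted p = 0.0128), from responses of 0.18 ± 0.15 and -0.65 ± 0.15. With library totals alone the call was lost, at 0.49 (adjusted p = 0.0754). Its neighbours in the list were not called: chi-miR-125b-5p stood at 0.32 ± 0.22, and 0.57 (adjusted p = 0.0484) without slick control 3. The 5 tested let-7 names (at most 4 separate signals), of a family that accumulates as animals mature, had positive differences from 0.27 to 0.60. Over all 107 names 53 differences were positive. Nearest to a call was ola-let-7g (0.60 ± 0.22, adjusted p = 0.0529), and aca-let-7b-5p, at 0 in 6 libraries, was not tested. The let-7 median of 0.46 was 0.09 under library totals alone, with 3 positive names of 5. tca-let-7-5p, at 0.46 ± 0.21, was called without slick control 1 (0.60, adjusted p = 0.0411).

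ola-miR-181a-5p, of a miRNA abundant in lymphocytes and brain of mammals, had 34679, 31916 and 36671 CPM with slick oil, against 45039, 37439.9 and 49606 CPM in the slick control. It had 58568, 51718 and 48405 CPM with source oil, against 44314, 39817 and 43119 CPM in the source control. All slick libraries lay below their controls and all source libraries above theirs. The difference was -0.67 ± 0.19 (adjusted p = 0.0178), and neither response was called alone (-0.36 ± 0.13 and 0.32 ± 0.13). The call was lost without slick control 3 or source control 2, where the difference was -0.58 to -0.63 and the adjusted p 0.0537 to 0.054. The 3 miR-181b names were not called, with differences from -0.63 to 0.19.

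Outside the lists, ssa-miR-22b-5p, of a miRNA known in mice for heart muscle growth, responded to slick oil. It had 313, 298 and 473 CPM with slick oil, against 149, 195 and 194 CPM in the slick control, and 167, 216 and 219 CPM with source oil, against 154, 218 and 217 CPM in the source control. All 3 slick 5.00% libraries exceeded the other 9 libraries. It rose with slick oil (1.01 ± 0.20, adjusted p = 0.00243), its source response was 0.03 ± 0.20, and the difference was 0.98 ± 0.28 (adjusted p = 0.0178), lost without slick 5.00% library 3 or source control 2, where the difference was 0.74 to 0.89 and the adjusted p 0.054 to 0.0572. Library totals alone gave 0.61 (adjusted p = 0.0713). oar-miR-30d had 572 ± 57.8 CPM with slick oil, 424 ± 67.6 CPM in its control, 481 ± 36.9 CPM with source oil and 535 ± 10.2 CPM in its control. The oar-miR-30d difference of 0.58 ± 0.20 (adjusted p = 0.046) was lost without slick 5.00% library 1 or 3, slick control 1 or 3, source 0.54% library 1 or 2 or source control 2 or 3, where the difference was 0.46 to 0.66 and the adjusted p 0.0515 to 0.0957. It was 0.23 (adjusted p = 0.419) with library totals alone, 0.56 (adjusted p = 0.0616) after thinning and 0.60 (adjusted p = 0.0639) in the fit to all libraries but slick 2.50%.

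Among 10 tested names of miRNAs known mainly from fish (at most 9 separate signals), 1 was positive and 3 negative among the calls, beside 12.1% and 13.1% of all names. A pair of the 3 negative names, those of miR-722, is 1 signal. ccr-miR-722, of a miRNA that limits neutrophil migration in zebrafish, had 32.9, 36.9 and 29.3 CPM with slick oil, against 33.1, 47.8 and 48.3 CPM in the slick control, and 40.5, 32.2 and 40.5 CPM with source oil, against 23.8, 25.8 and 26.1 CPM in the source control. It rose with source oil (0.58 ± 0.18, adjusted p = 0.0235), and its difference was -0.96 ± 0.26 (adjusted p = 0.0154), the same as for its near-identical partner ssa-miR-722-5p (-0.96 ± 0.26). The slick control exceeded the source control by 0.78 ± 0.18 (adjusted p = 0.0025). dre-miR-2187-5p was counted at 11 to 42 reads in the slick 5.00% libraries, which gave 4.76, 10.9 and 6.97 CPM, against 12.8, 12.9 and 13.6 CPM in the slick control. The source 0.54% libraries had 13.9, 11.9 and 15.1 CPM, against 10.7, 9.13 and 9.02 CPM in the source control. Neither pair of groups overlapped. The responses of -0.72 ± 0.25 to slick oil and 0.51 ± 0.22 to source oil were not called singly. Their difference was -1.23 ± 0.33 (adjusted p = 0.0154).

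ola-miR-731, which lies beside miR-462 in fish genomes, had 63.5 ± 16.5 CPM with slick oil, 48.6 ± 13.1 CPM in its control, 52.3 ± 9.60 CPM with source oil and 73.6 ± 4.84 CPM in its control. The difference of 0.87 ± 0.31 (adjusted p = 0.046) was lost without slick 5.00% library 2 or 3, slick control 1 or 3, source 0.54% library 1 or 2 or source control 2 or 3, where the difference was 0.65 to 0.93 and the adjusted p 0.0587 to 0.138. It was 0.51 (adjusted p = 0.177) with library totals alone, 0.78 (adjusted p = 0.0684) after thinning and 0.88 (adjusted p = 0.0785) in the fit to all libraries but slick 2.50%. ola-miR-462 itself stood at 0.04 ± 0.31, and ssa-miR-734-5p, the most abundant fish name, at -0.12 ± 0.26 (95% interval -0.65 to 0.42).

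In the remaining lists no name was called. Their most abundant names were pma-miR-203a-3p of the skin (0.39 ± 0.21, and 0.49 with adjusted p = 0.0408 without slick 5.00% library 2), ola-miR-194-5p of the gut (-0.17 ± 0.20) and ipu-miR-375 of pancreatic islets (0.50 ± 0.20, adjusted p = 0.0782). Connective tissue gave aca-miR-199a-5p at 0.06 ± 0.18, and the miR-23/24/27 cluster gave efu-miR-27b at 0.26 ± 0.19 with a list median of 0.06 over 7 names. ola-miR-430a, of the family that clears maternal messages in early embryos, stood at -0.28 ± 0.21, and -0.64 with adjusted p = 0.0408 under library totals alone. In the damage and hypoxia list ola-miR-21 stood at 0.16 ± 0.20, aca-miR-34b-5p, of a p53-induced family, at -0.88 ± 0.40 (adjusted p = 0.108) and the rare efu-miR-29b at -1.65 ± 0.61 (adjusted p = 0.056). The 5 names of the miR-15/16 family in both tables were not tested, because each was at 0 in at least 1 library or too rare.

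**Figure D4:**
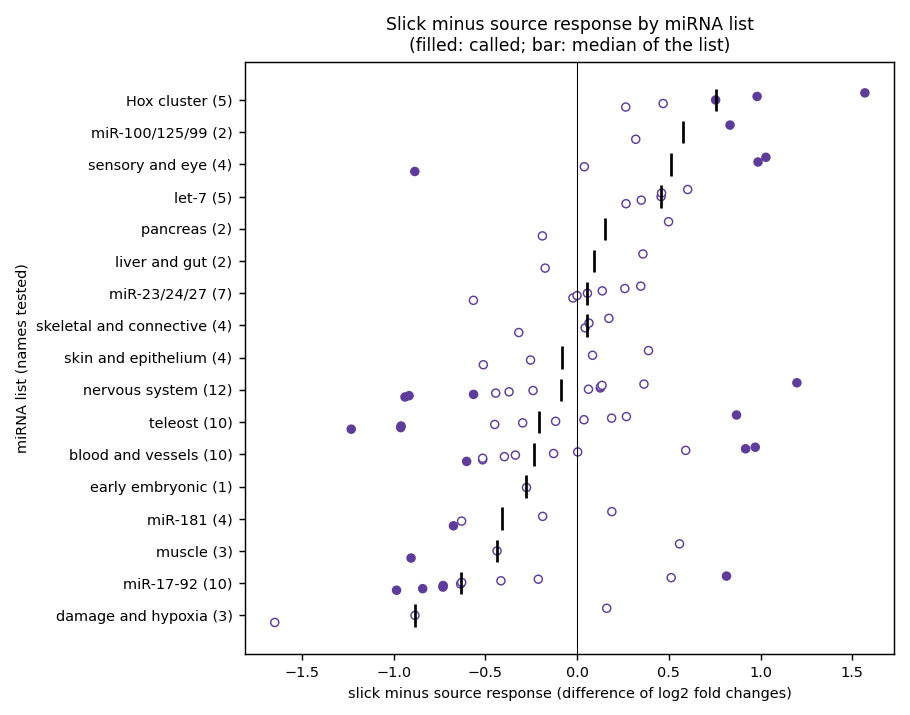
Slick minus source response (horizontal axis, difference of log2 fold changes) of the tested names of each list (vertical axis, number tested in parentheses). Filled points are called names and bars are list medians, from 0.75 for the Hox clusters to -0.63 for the miR-17-92 family and -0.88 for the 3 damage and hypoxia names, none of which was called.

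The groups behind the difference were unequal without oil as well. Between both sets of controls 48 of the 107 names (44.9%) were called, 23 higher (21.5%) and 25 lower (23.4%) in the slick control, and between both exposed groups 43 names (40.2%), 18 higher (16.8%) and 25 lower (23.4%) with slick oil 5.00%. Of the 27 names called for the difference, the controls differed in 13 and the exposed groups in 15. In 23 of the 27 the slick and source groups stood in opposite order in the exposed groups and in the controls, which the choice of the names favours. These comparisons use the same 12 libraries as the difference itself and give no independent support. What part the unequal controls have in the difference was not tested.

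The same difference at the lower ranks of concentration was read from a fit to all 24 libraries. Of the 141 names in all 6 count tables, 10 were left out because counts of the same control libraries differed between tables. The fit tested 96 names and held 25 of the 27, without ola-miR-17 and ola-miR-181a-5p. Its common biological coefficient of variation was 20.82%, and edgeR called 0 of the 96 names (0.00%) for the difference at the highest rank, with 19 names at an unadjusted p under 0.05. No other tool was run on the 24 libraries. Without the slick 2.50% libraries, a choice made after the data were seen, 24 names were called, 21 of them among the 27. The ranks share both sets of controls, so their values are set side by side without a test. From the lowest to the highest rank, ola-miR-184-5p had values of 0.62 ± 0.30, 1.01 ± 0.30 and 1.00 ± 0.30. ola-miR-204 had 0.38 ± 0.53, 1.29 ± 0.53 and 1.05 ± 0.53, and mdo-miR-128a-5p 0.43 ± 0.50, 0.80 ± 0.50 and 1.21 ± 0.50. For ola-miR-100 the values were 0.56 ± 0.26, 0.62 ± 0.26 and 0.85 ± 0.27. These 4 names had positive values at each rank. Equal signs are favoured by the controls that the ranks share. Their share over all 96 names was not worked out. The counts of signs below therefore show nothing particular to the called names. The uncalled ola-miR-430a, for instance, had -0.38 ± 0.23, -0.53 ± 0.23 and -0.25 ± 0.23. Of the 13 positive names, 11 were also positive at the lowest rank and 13 at the middle rank. The 12 negative names hold both nearly identical pairs, those of miR-19 and miR-722. Of these 12 names, 12 were negative at the lowest rank and 7 at the middle rank. Among them dre-miR-2187-5p had -0.37 ± 0.36, -0.73 ± 0.36 and -1.21 ± 0.38, and chi-miR-96 -0.20 ± 0.33, -0.59 ± 0.33 and -0.85 ± 0.33. The brain name aca-miR-9-5p, which was not called, had -0.35 ± 0.23, -0.20 ± 0.23 and 0.37 ± 0.23. Other names had values near 0 below the highest rank: dre-miR-124-4-5p had -0.07 ± 0.30, 0.13 ± 0.30 and -0.91 ± 0.30, ssa-miR-22b-5p -0.03 ± 0.40, 0.19 ± 0.40 and 0.98 ± 0.40, and ola-miR-19b -0.17 ± 0.36, 0.15 ± 0.36 and -0.70 ± 0.36. The slick 2.50% libraries behind the middle rank were the least alike of the series. Their log2 levels departed from the group mean by an SD over names of 0.36 to 0.62, against 0.10 to 0.33 in all other libraries.

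**Figure D5:**
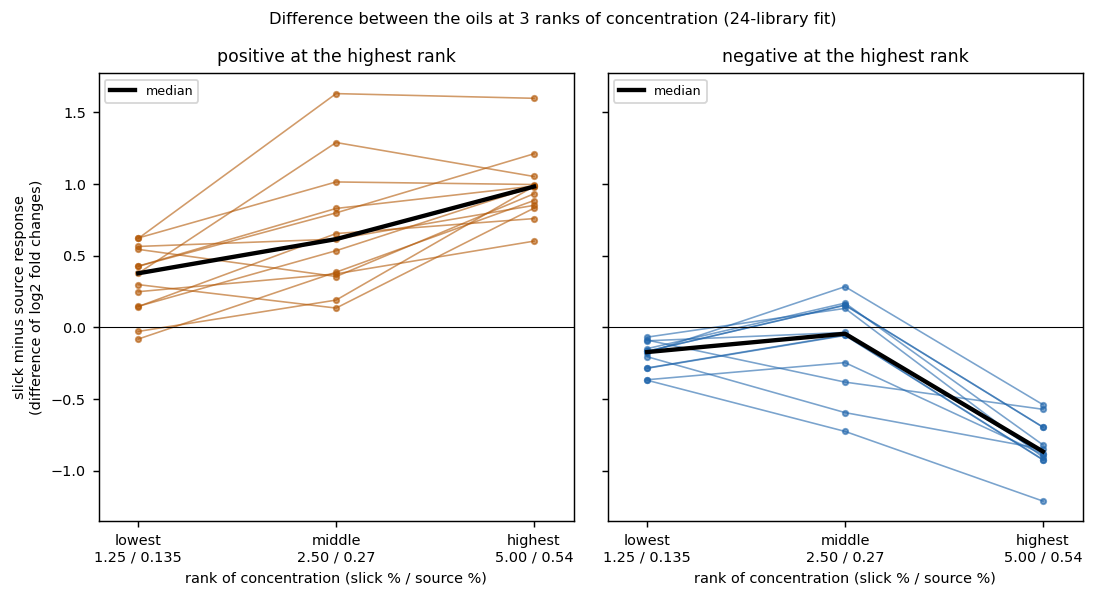
Slick minus source response (vertical axis, difference of log2 fold changes) at the lowest, middle and highest rank of concentration (horizontal axis) for the 25 called names in the 24-library fit, with the median as a heavy line. Medians of the 13 positive names were 0.38, 0.62 and 0.98 from the lowest to the highest rank, and those of the 12 negative names -0.17, -0.04 and -0.87. The names were chosen at the highest rank, and the ranks share both sets of controls.

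Most names outside the test were at 0 in some libraries. None of the 143 joined names was at 0 in control 1 of either oil. Of the 143 joined names, 10 were too rare and 26 more had a 0 in at least 1 of the 12 libraries. ipu-miR-222a was at 0 in every slick 5.00% library, against 21308, 24571 and 28851 counts in the slick control. It was at 0 in every source 0.54% library, against 22364, 0 and 0 counts in the source control. The name ssa-miR-222a-5p was counted in all 12 libraries, at 11276 to 18162 reads with slick oil 5.00%, 24297 to 33445 in the slick control, 24446 to 36968 with source oil 0.54% and 26076 to 42966 in the source control. The zeros therefore hold for the name and not for miR-222 reads as a whole. Likewise ola-miR-128 was at 0 in 6 of the 12 libraries, while mdo-miR-128a-5p was counted in all of them.

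Because reads of 1 miRNA can be counted under several names, the fit was repeated with the highest count among all names of a miRNA number in each library, over names of either table. This choice was made after the data were seen. A number pools lettered members and arms, such as miR-181a with miR-181b, and the highest name can differ between libraries. The value of a number is therefore not that of 1 called name. The fit with the highest name tested 81 numbers and called 16 (19.8%), 9 positive (11.1%) and 7 negative (8.64%). miR-184 stood at 0.97 ± 0.19 (adjusted p = 0.016), miR-204 at 1.03 ± 0.24 (adjusted p = 0.0174) and miR-124 at -0.92 ± 0.20 (adjusted p = 0.0174). miR-222 stood at 0.91 ± 0.22 (adjusted p = 0.0194), miR-128 at 1.19 ± 0.32 (adjusted p = 0.0244), miR-17 at -0.99 ± 0.27 (adjusted p = 0.0244) and miR-10 at 0.75 ± 0.23 (adjusted p = 0.0374). The numbers of 6 called names were not called in this fit. Their differences, with edgeR's adjusted p in parentheses, were -0.88 (0.0615) for miR-96, -0.57 (0.0658) for miR-135, -0.60 (0.0658) for miR-144, 0.86 (0.0658) for miR-731, -0.38 (0.839) for miR-133 and 2.29 (0.216) for miR-30. The fit was also run with the counts of all names of a number summed, where reads under several names can enter repeatedly. Its median difference was 0.13, against 0.00 over the 107 names and -0.03 with the highest name, so its values lay higher. It called 6 numbers, 5 positive and 1 negative. These were miR-184 at 1.17 (0.0131), miR-204 at 1.21 (0.0131), miR-100 at 1.02 (0.0131), miR-124 at -0.74 (0.0255), miR-92 at 1.00 (0.0255) and miR-22 at 1.495 (0.0263). The sum lost the calls of miR-222 at 0.48 (0.107), miR-128 at 1.37 (0.187), miR-17 at -0.79 (0.0735), miR-10 at 0.81 (0.0687), miR-181 at -0.33 (0.241), miR-722 at -0.78 (0.0735), miR-19 at -0.55 (0.0847), miR-106 at -0.65 (0.107), miR-130 at 0.97 (0.0687) and miR-2187 at -1.06 (0.0537). It also left uncalled the 6 numbers lost with the highest name.

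The count of 27 calls rested in part on single libraries. It lay between 14 and 36 when 1 library was left out, with 14 calls without source control 2 and 16 without slick control 3, and 13 of the 27 names were called in all 12 of these fits. Over all 133 joined names with zeros allowed, the common biological coefficient of variation was 103.8%, against 14.87% in the 107 names, and edgeR called 4 names (3.01%). These were ola-miR-184-5p, positive (0.752%), and ola-miR-124-5p, dre-miR-124-4-5p and ola-miR-181a-5p, negative (2.26%). The slick 5.00% libraries were the shallowest, and after all libraries were thinned to the smallest total, 24 names were called, 23 of them among the 27.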

How the data were processed

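Small RNA of pooled whole larvae was sequenced in 24 libraries, of which the 12 of the highest concentrations and their controls were compared. The authors deposited whole-number read counts per mature miRBase name, per the file headers, in 1 table per oil and concentration. The aligner, the miRBase release and the treatment of multiply matching reads are unknown here. Some names held nearly the same counts, such as 261002 for ola-miR-128 and 260984 for mdo-miR-128a-5p in slick control 1. Reads of 1 miRNA can therefore stand under several names as well as be split between them. Library totals and sums over names can count such reads repeatedly. The submitters' processing notes name DESeq2, and the authors' result tables were not used. The columns of all tables matched the labels, with 0 columns left over.

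The counts of 143 names found in both tables were fitted in R 4.3.3 with edgeR 4.0.16 (TMM, glmQLFit and glmQLFTest, 4 group means, no covariate) over names counted in all 12 libraries and at 10 or more in at least 3. Standard errors are the absolute log2 value divided by the square root of F, and p-values were adjusted over all 107 names (Benjamini-Hochberg). Depth ran from 2820454 to 9741582 counts. The procedure was tested on simulated counts of 107 names, 20 of them changed by 1 on the log2 scale. It recovered 15 of the 20 and made 2 false calls in those simulated counts. In the real counts, names can share reads, and the controls of both oils differed in 48 of the 107 names. The rate of false calls in the real counts was not tested. Alternatives were scaling by library totals or median of ratios, DESeq2 1.42.0, other filters, a replicate block, each library left out, all 24 libraries, and names merged by number. The text names every called name and the most abundant tested member of each of 18 lists, except the miR-15/16 list, which had none. It also names ipu-miR-222a, the 1 name at 0 throughout 1 group and at high counts in every library of another. Others are named to complete a family and were chosen after their values were seen. The members and lists were chosen with earlier results of these data known.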

Additional observations from a re-analysis of the deposited data

Results flagged for a closer look

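Each of the 27 called names is listed here because its response to slick oil 5.00% differed from its response to source oil 0.54% in a direct test of that difference (edgeR's quasi-likelihood test over 12 libraries, adjusted p from 0.00887 to 0.046). Where the slick response stood above the source response, the differences of log2 fold changes were tur-miR-10-5p (1.57), mdo-miR-128a-5p (1.20), ola-miR-204 (1.03), ola-miR-184-5p (0.99), mdo-miR-10b-5p (0.98), ssa-miR-22b-5p (0.98) and hsa-miR-130b-5p (0.97), then ssa-miR-222a-5p (0.92), ola-miR-731 (0.87), ola-miR-100 (0.83), sha-miR-92a (0.81), sha-miR-10b (0.75) and oar-miR-30d (0.58). Where it stood below, they were dre-miR-2187-5p (-1.23), ola-miR-17 (-0.98), ccr-miR-722 (-0.96), ssa-miR-722-5p (-0.96), dre-miR-124-4-5p (-0.94), ola-miR-124-5p (-0.92) and rno-miR-133b-5p (-0.90), then chi-miR-96 (-0.88), ola-miR-106a (-0.84), ola-miR-19b (-0.73), ssa-miR-19c-4-5p (-0.73), ola-miR-181a-5p (-0.67), ssa-miR-144-3p (-0.60) and ola-miR-135b (-0.56). Of these 27, the responses of 7 were not called in either oil alone. For 13 names the controls of both oils also differed, and the part of that gap was not tested. No group had more than 3 libraries, so single libraries were not tested for standing apart.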

How the results depend on the processing

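All 27 called names kept their direction under every alternative that could be fitted to them, but the number of calls moved. The 27 calls for the difference became 4 over all joined names with zeros allowed, 6 with names of 1 miRNA number summed, 16 with the highest name of each number and 0 in the fit to all 24 libraries (19 at an unadjusted p under 0.05, edgeR). They became 40 with library totals alone, 28 with median-of-ratios factors, 28 with DESeq2, 27 with no minimum count, 26 with near-identical names counted once, 24 in a fit to all libraries but slick 2.50% and 24 after thinning. Leaving out 1 library gave 14 to 36 calls for the difference, 12 to 24 for slick oil (14 with all libraries) and 8 to 40 for source oil (31 with all libraries). The source count was lowest without source control 2 (8), source 0.54% library 1 (13) and source control 3 (16), and the slick count highest without slick control 2 (24). The slick calls were 8 over all 24 libraries, 8 with names summed and 9 with the highest name. The source calls were 7 over all 24 libraries, 15 with names summed and 16 over all joined names.

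With the replicate number of each oil as a block, 37 names were called for the difference, all 27 among them, and 25 for slick oil. Within an oil, deviations of same-numbered exposed and control libraries correlated at -0.138 to 0.486, and 7 of 12 libraries correlated best with their own number. In the labels the samples share only a number, so whether they were paired is not known. No called name reversed. With library totals alone, names that were not called turned negative: chi-miR-182 (-0.29), tgu-miR-126-5p (-0.34), aca-miR-199a-5p (-0.28), tgu-miR-196 (-0.12), efu-miR-27b (-0.086), chi-miR-125b-5p (-0.040) and ola-miR-21 (-0.19). Thinning gave -0.011 for chi-miR-182 and -0.049 for tgu-miR-126-5p, which was -0.023 over all joined names. With 1 library left out the differences ranged over -0.122 to 0.116 for chi-miR-182, -0.089 to 0.069 for tgu-miR-126-5p, -0.0034 to 0.173 for aca-miR-199a-5p, -0.074 to 0.393 for tgu-miR-196 and -0.300 to 0.101 for ssa-miR-734-5p. ipu-miR-375, not called with TMM, was called with median-of-ratios factors (adjusted p = 0.0387), with DESeq2 (0.0301) and with the replicate block (0.0447). The cause of these shifts was not tested. With 3 libraries a group and 2820454 counts in the shallowest, names with few counts had wide errors, such as tur-miR-10-5p (SE 0.50).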

Other observations

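Besides ssa-miR-144-3p, 2 of the 107 names were called in the same direction with both oils, and no difference between their responses was detected. aca-miR-132-5p, of a miRNA induced by activity in neurons of mammals, had 208, 238 and 277 CPM with slick oil, against 318, 362 and 329 CPM in the slick control. Source oil 0.54% gave 352, 309 and 328 CPM, against 455, 457 and 527 CPM in the source control. It fell with slick oil (-0.48 ± 0.14, adjusted p = 0.0303) and with source oil (-0.54 ± 0.14, adjusted p = 0.0117, edgeR), and the difference of the responses was 0.06 ± 0.20 with a 95% interval of -0.36 to 0.48. ssa-miR-8159-5p, a name known from fish, had 2506, 2918 and 3199 CPM with slick oil, against 1923, 1884 and 1827 CPM in the slick control. With source oil it had 4117, 3872 and 4158 CPM, against 3128, 3043 and 2869 CPM in the source control. It rose with slick oil (0.61 ± 0.12, adjusted p = 0.00243) and with source oil (0.43 ± 0.12, adjusted p = 0.0171, edgeR), with a difference of 0.19 ± 0.17 and a 95% interval of -0.17 to 0.55. For both names every exposed library stood apart from every control of its oil, although the slick controls lay below the source controls by 0.51 for aca-miR-132-5p and 0.68 for ssa-miR-8159-5p on the log2 scale. These names were chosen after their values were seen.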
